A study of Mus musculus with 12 samples.

Results

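Myocd encodes myocardin, and its transcript was followed here in exosomes, small vesicles that cells release, from cultured mouse heart muscle cells. Every probe annotated Myocd was taken, which gave 3 probes of the 25696 on the array and 1 of the 16593 named genes. The gene was picked by measured values of these same arrays, namely an even normalized signal with TGF-β2 and a low one on most PDGF-BB arrays and on control sample 1. Its levels are therefore given as a description, without a test.

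HL-1, a line derived from mouse atrial muscle cells, was kept for 23 h in serum-free medium with no growth factor (control), with TGF-β2 at 10 ng/mL or with PDGF-BB at 100 ng/mL, and exosome RNA was put on MouseRef-8 bead arrays, with 4 samples per group. Per the methods, each sample came from 1 culture flask, so the spread between samples is a spread between flasks of 1 cell line and not between animals. Each of the 2 chips carried 2 samples per group. Chip 1 held control 2 and 3, TGF-β2 1 and 4 and PDGF-BB 1 and 4. Control arrays took positions A and B, TGF-β2 arrays C and D and PDGF-BB arrays E and F on both chips, so group and position cannot be told apart. The study set aside 1 PDGF-BB sample for poor labelling and hybridisation, which the labels do not name, and all 12 arrays were kept here. Arrays of the parental cells were not analysed here.

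Myocardin is a coactivator of the transcription factor SRF in heart and smooth muscle. It does not bind DNA by itself but reaches its genes through SRF, which binds short DNA elements called CArG boxes. In smooth muscle, TGF-β is known to raise contractile genes of this pathway, and PDGF-BB is known to lower them, in part through ELK1, which competes with myocardin for SRF. The related coactivators MRTF-A and MRTF-B use the same partner.

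A CArG box was found between 250 bases before and 50 bases after the start of 488 of 27025 mouse genes (1.81%) in RefSeq windows of GRCm38.p6, as a match of letters and not as a tested site. Of the 82 listed pathway genes with such a window, 12 held one, and of these Myl7, Ldb3, Srf and Pdgfc were detected on at least 1 array. The stretches of Srf, which holds 2 boxes, and of the most often detected genes with a box, Myl7 and Ldb3, are shown because this is the element at which myocardin acts. They are printed 5′ to 3′ on the strand of the gene, with the CArG boxes in capitals. They lie on the minus strand at chr17:46556190-46556269 for Srf, chr11:5898809-5898868 for Myl7, which encodes an atrial myosin light chain, and chr14:34588682-34588741 for Ldb3, which encodes a Z-disc protein.
Srf: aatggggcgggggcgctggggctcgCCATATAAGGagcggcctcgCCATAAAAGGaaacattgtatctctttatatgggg
Myl7: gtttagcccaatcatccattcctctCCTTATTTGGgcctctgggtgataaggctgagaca
Ldb3: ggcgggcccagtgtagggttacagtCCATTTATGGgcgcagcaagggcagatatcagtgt

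The 3 Myocd probes did not behave alike. Probe ILMN_3151642 was detected, with a detection p-value under 0.01 against the negative control beads of its array, on 8 of 12 arrays. Probe ILMN_3072880, annotated to the same transcript, was detected on 0 of 12, with a background-subtracted signal of -12.35 to 43.14 and a detection p of 0.094 to 0.654. Probe ILMN_1218766, annotated to another transcript, was also at 0 of 12, with signals of -78.94 to -38.64 and a detection p of 0.915 to 0.996. A detection p over 0.9 on all 12 arrays was shared by 166 probes (0.646%). Of the 27 genes with 3 probes whose best probe was detected on 8 or more arrays, 12 had their other 2 probes at 0 arrays, as Myocd did. Detection on 8 or more arrays was reached by 203 probes (0.79%), and 22360 (87.0%) were detected on none. All levels below are from the detected probe, and no other Myocd probe repeats them.

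In control exosomes the signal, a mean over 31 to 50 beads on a linear scale, was 44.75 ± 13.3 (bead standard error) in sample 1, 461.6 ± 38.2 in sample 2, 574.5 ± 28.9 in sample 3 and 164.6 ± 22.1 in sample 4. Samples 2, 3 and 4 had a detection p of 0, and sample 1 was not detected at 0.0288. With TGF-β2 the signal was 185.9 ± 27.5, 295.8 ± 16.7, 673.3 ± 34.9 and 164.6 ± 17.8 in samples 1 to 4, over 34 to 37 beads. Myocd was detected in all 4 TGF-β2 samples, and their linear signals were spread about as widely as those of the control. With PDGF-BB the signal was 1.065 ± 18.3, 51.38 ± 16.9, 198.0 ± 20.3 and 59.93 ± 22.9 over 29 to 34 beads, with a detection p of 0.516, 0.0263, 0 and 0.0238. PDGF-BB 3 alone of that group was detected, above TGF-β2 1 and 4 on this scale, and PDGF-BB 1 lay at background. In bulk exosome RNA, fewer vesicles and less of the transcript per vesicle cannot be told apart. With a looser detection p under 0.05, Myocd was detected in 4 control, 4 TGF-β2 and 3 PDGF-BB samples.

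**Figure D1:**
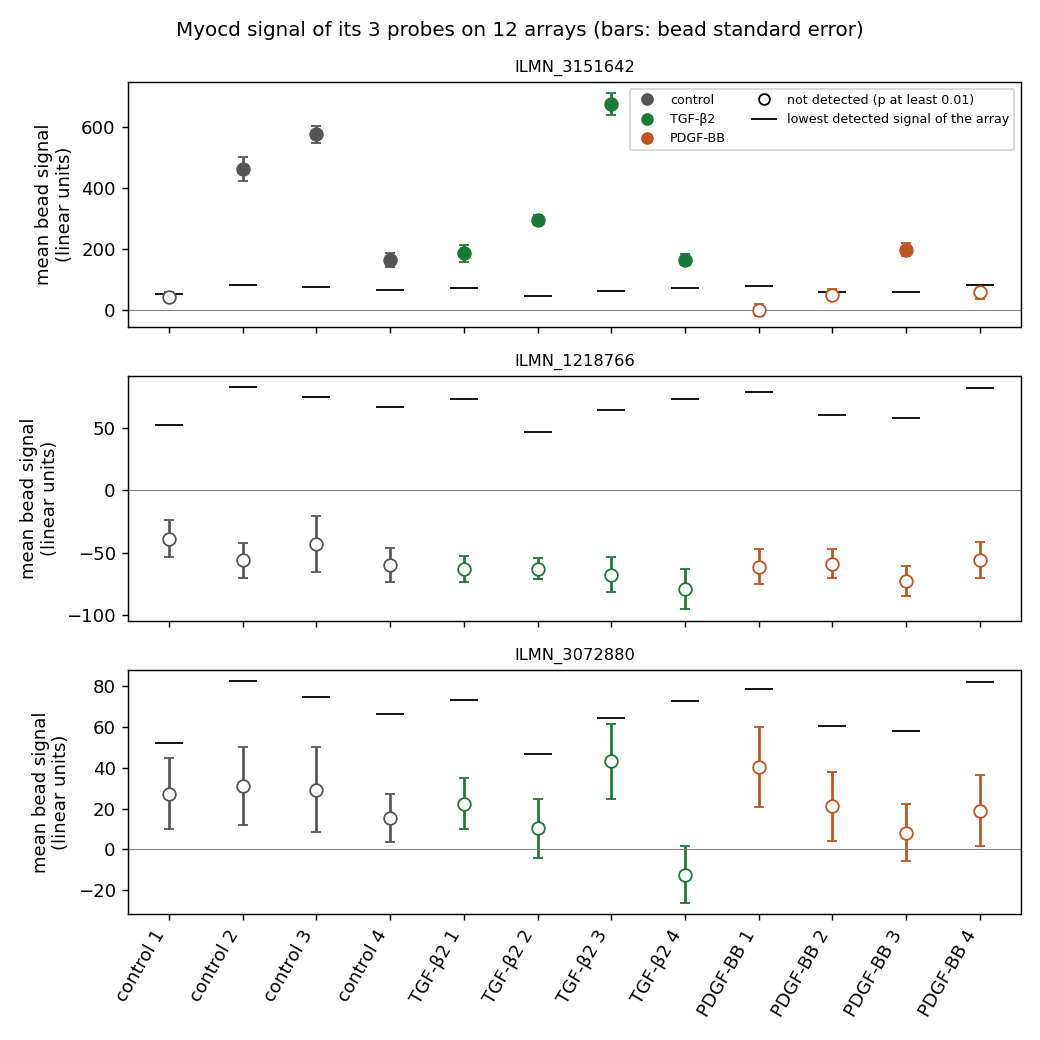
Mean bead signal (linear units, y axis) of the 3 Myocd probes on the 12 arrays (x axis), with bars for the bead standard error, open symbols where the probe was not detected, and a dash at the lowest detected signal of each array. ILMN_3151642 lies above the dash on 8 arrays, and the other 2 probes lie below it on all 12.

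The rank of the probe within its own array does not depend on any scaling between arrays. With TGF-β2, Myocd ranked 63, 73, 75 and 66 from the top of 25696 probes. In control it ranked 906, 68, 57 and 106, and with PDGF-BB 13628, 697, 179 and 1085. All 4 TGF-β2 samples were thus placed higher than all 4 PDGF-BB samples, while control 2 lay among the TGF-β2 ranks and control 3 above them. The ranks come from the signals that served to pick Myocd, so this placing is no independent support. Quantile-normalized levels follow the rank within the array, so ranks and those levels do not check each other. The scatter between the beads of the probe was ordinary: between 11.5% and 85.8% of probes of similar signal on the same array had a smaller one.

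On the log2 scale after quantile normalization, Myocd stood at 7.81 ± 0.09 in TGF-β2 exosomes, 7.03 ± 1.35 in control exosomes and 5.31 ± 0.76 in PDGF-BB exosomes (mean ± SD, n = 4). The TGF-β2 samples read 7.91, 7.74, 7.72 and 7.85, the control samples 5.08, 7.81, 8.05 and 7.18 and the PDGF-BB samples 4.65, 5.15, 6.40 and 5.04. TGF-β2 was even, control was divided between sample 1 and the others, and PDGF-BB was low except for sample 3. A smaller SD than that of Myocd was seen in 3.82% of the 1099 tested probes for TGF-β2, where the median SD was 0.34, but in 94.7% for control and 68.1% for PDGF-BB. Even signal with TGF-β2 and low signal in control 1 served to pick Myocd, so nothing is read from these shares. The evenness with TGF-β2 belonged to 2 scalings, with an SD of 0.09 after quantile and 0.11 after the spline normalization, against 0.31 when scaled on the probes detected on every array and 1.22 when only the array medians were set equal.

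From high to low the order of the 12 arrays was control 3, TGF-β2 1, TGF-β2 4, control 2, TGF-β2 2, TGF-β2 3, control 4, PDGF-BB 3, PDGF-BB 2, control 1, PDGF-BB 4 and PDGF-BB 1. Among the first 6, each neighbouring pair overlapped within 1 bead standard error. Control 4 stood 0.54 below the sixth on the log2 scale, and PDGF-BB 3 stood 0.78 below control 4, both beyond those intervals. PDGF-BB 3, PDGF-BB 2, control 1 and PDGF-BB 4 overlapped again from one to the next, and PDGF-BB 1 fell below them. The bead error covers the reading of 1 array and not the spread between flasks.

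TGF-β2 minus PDGF-BB was 2.50 on the log2 scale (standard error 0.38 from the group SDs), a 5.64-fold difference, with 3.03 on chip 1 and 1.96 on chip 2. Since 3 of the 4 PDGF-BB samples did not detect Myocd, the fold is a ratio of readings, most of them near background in that group. The lowest TGF-β2 sample lay 1.32 above the highest PDGF-BB sample. Whichever PDGF-BB sample was left out, the difference was 2.35 to 2.72. All 4 TGF-β2 arrays above all 4 PDGF-BB arrays was seen in 17 of the 1099 tested probes (1.55%), a contrast that served to pick Myocd and from which nothing is read here. PDGF-BB minus control was -1.72 (standard error 0.77), with -3.08 on chip 1 and -0.36 on chip 2, where control 1 lay. TGF-β2 minus control was 0.78 (standard error 0.68), with -0.05 on chip 1 and 1.60 on chip 2. Without control 1, PDGF-BB minus control was -2.44 and TGF-β2 minus control 0.13. The TGF-β2 and control ranges overlapped, as did those of PDGF-BB and control.

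The groups also differed in array strength, counted as the number of other probes detected on an array. It was 463, 819, 1151 and 526 in control samples 1 to 4, 563, 988, 1505 and 517 with TGF-β2, and 421, 322, 1069 and 294 with PDGF-BB. The 4 arrays that did not detect Myocd, namely control 1 and PDGF-BB 1, 2 and 4, were by this count the 4 weakest of the 12. PDGF-BB 3, by this count the strongest array of its group, was also the one that detected Myocd. The next weakest arrays, TGF-β2 4 and control 4, still detected it at 164.6 each. Other measures of strength gave another order. With probes counted at p under 0.05, TGF-β2 4 (1660) was weaker than PDGF-BB 4 (1775). By the 95th percentile of the signal, PDGF-BB 1 (60.9) was stronger than TGF-β2 2 (42.6). Across the 12 arrays, which share 2 chips and the 3 treatments, the log2 level had a Pearson r of 0.61 and a Spearman rho of 0.64 with strength. Within chip 1 r was 0.69 and within chip 2 it was 0.73 (n = 6 each), and 0.56 without TGF-β2 3 and control 3, the arrays farthest from the median strength. For the log2 signal before normalization r was 0.79 and rho 0.91. Among all 1099 tested probes the median r with strength was 0.27, and 24.8% had a higher one than Myocd. The part of array strength in the Myocd differences was not tested.

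**Figure D2:**
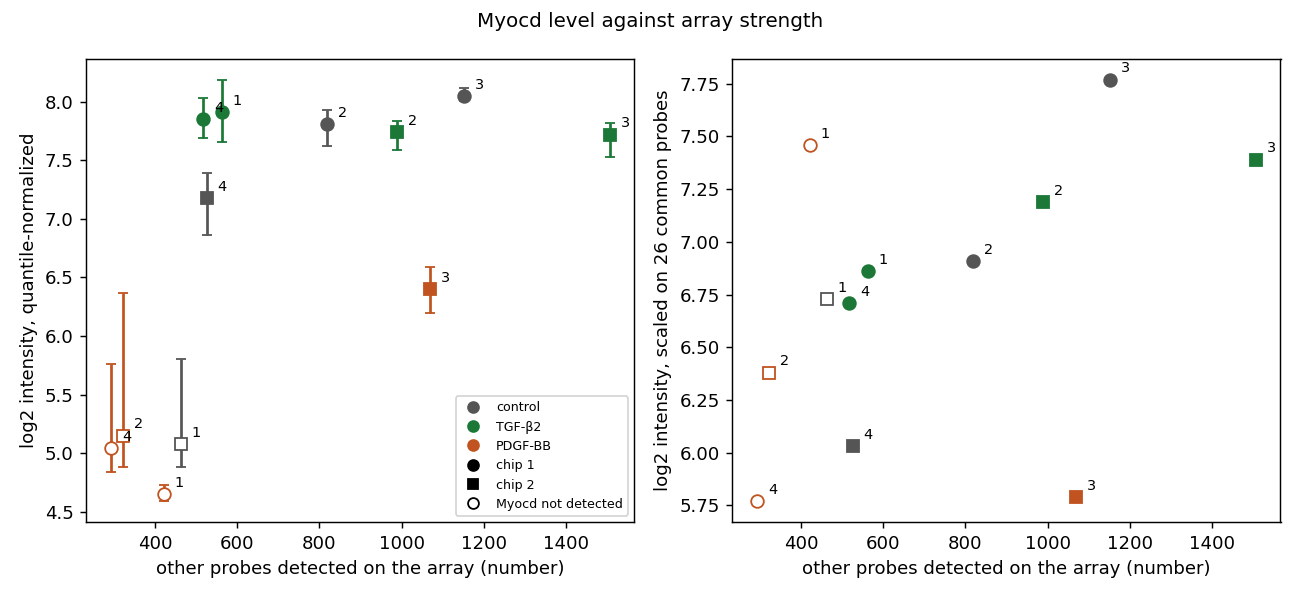
Myocd log2 intensity (y axis) against the number of other detected probes (x axis), quantile-normalized at left with bars for 1 bead standard error, and scaled on the 26 probes detected on every array at right. Labels give the sample number, colours the group, squares chip 2 and open symbols arrays that did not detect Myocd. The 4 open symbols are farthest left in both panels. At left they are also the 4 lowest, and at right they run from 5.77, the lowest value, to 7.46.

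How far the groups stood apart depended on the scaling. With only the array medians set equal, TGF-β2 minus PDGF-BB was 2.17, but the TGF-β2 samples ran from 6.36 to 9.08 and the PDGF-BB samples from 4.65 to 7.16, so that they overlapped. Scaled on the 26 probes detected on all arrays, the difference was 0.69, with 0.17 on chip 1 and 1.20 on chip 2, and PDGF-BB minus control was -0.51. That scaling moved all probes together: the median tested probe shifted by -1.27 between TGF-β2 and PDGF-BB, and Myocd lay 1.95 above that median. With array medians set equal this distance was also 1.95. It had to be, since these scalings differ only by a constant per array, so it is no separate check. The silent probe ILMN_1218766, at background on every array, read 3.86 ± 0.94 with TGF-β2 and 5.38 ± 1.78 with PDGF-BB on that scale (SD, n = 4). On the 4 arrays without detected Myocd, the Myocd probe and this silent probe read 6.73 and 6.27 in control 1, 7.46 and 7.32 in PDGF-BB 1, 6.38 and 5.85 in PDGF-BB 2 and 5.77 and 5.30 in PDGF-BB 4.

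The genes most like Myocd were sought by Pearson r over the 12 log2 values among 1098 other tested probes, whose median r was 0.31, with 31 over 0.8. The 10 named genes with the highest r were 2310022B05Rik (0.95), Trp53inp2 (0.95), Mapre1 (0.94), Fam168b (0.93), Nrd1 (0.93), Dcaf7 (0.92), Arpc5 (0.92), Wtip (0.91), Cyb561 (0.90) and Vps54 (0.89). Trp53inp2 takes part in autophagy, Mapre1 encodes the microtubule end-binding protein EB1, Arpc5 a subunit of the actin-nucleating complex Arp2/3 and Vps54 a tethering factor of vesicle traffic to the Golgi. Their r with Myocd was 0.89 to 0.98 within chip 1 and 0.86 to 0.97 within chip 2, and Spearman rho over all arrays was 0.66 to 0.93. The chips hold the same arrays on which these genes were picked, so these values are no independent repeat of the likeness. The r of the 10 genes with array strength was 0.40 to 0.79.

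Like Myocd, Trp53inp2 read 4.73 in control 1 against 7.49 to 8.10 in the other controls, and 4.68, 5.35 and 4.82 in PDGF-BB 1, 2 and 4. In PDGF-BB 3 it read 7.34, inside its TGF-β2 range of 7.33 to 8.60. Mapre1 read 4.76 in control 1 and 6.62 to 7.30 in the others, with 6.54 in PDGF-BB 3 and 6.52 to 7.47 with TGF-β2. Only 4 of the 10 genes, Fam168b, Dcaf7, Arpc5 and Vps54, had all TGF-β2 samples above all PDGF-BB samples as Myocd did. All 10 were detected on 4 TGF-β2 arrays and on 1 or 2 PDGF-BB arrays, and 9 on 3 control arrays, with Vps54 on 2. These 10 genes were picked for their likeness to Myocd over the same arrays. Their shared low arrays and detection counts are therefore largely a product of that choice and no independent support. Of the 8 genes among them with a promoter window, 0 held a CArG box, which speaks of that window only.

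The named genes with the lowest r were Zcchc9 (-0.92), Ncstn (-0.91), Slc25a3 (-0.88), Gm5820 (-0.86) and Klf10 (-0.84). Ncstn encodes nicastrin of the gamma-secretase complex, Slc25a3 the mitochondrial phosphate carrier and Klf10 a transcription factor known as an early gene of TGF-β. Klf10 read 8.81 in control 1 and 10.13, 8.39 and 7.34 in PDGF-BB 1, 2 and 4, against 5.05 to 7.24 with TGF-β2. In controls 2, 3 and 4 it read 4.75, 4.97 and 7.30 and in PDGF-BB 3 6.07, so the TGF-β2 values were not set apart from untreated ones. For each of these 5 genes, the 4 arrays that did not detect Myocd were the 4 highest of the 12. The 5 genes were picked for the lowest r over these same arrays, so this placing is largely a product of that choice.

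**Figure D3:**
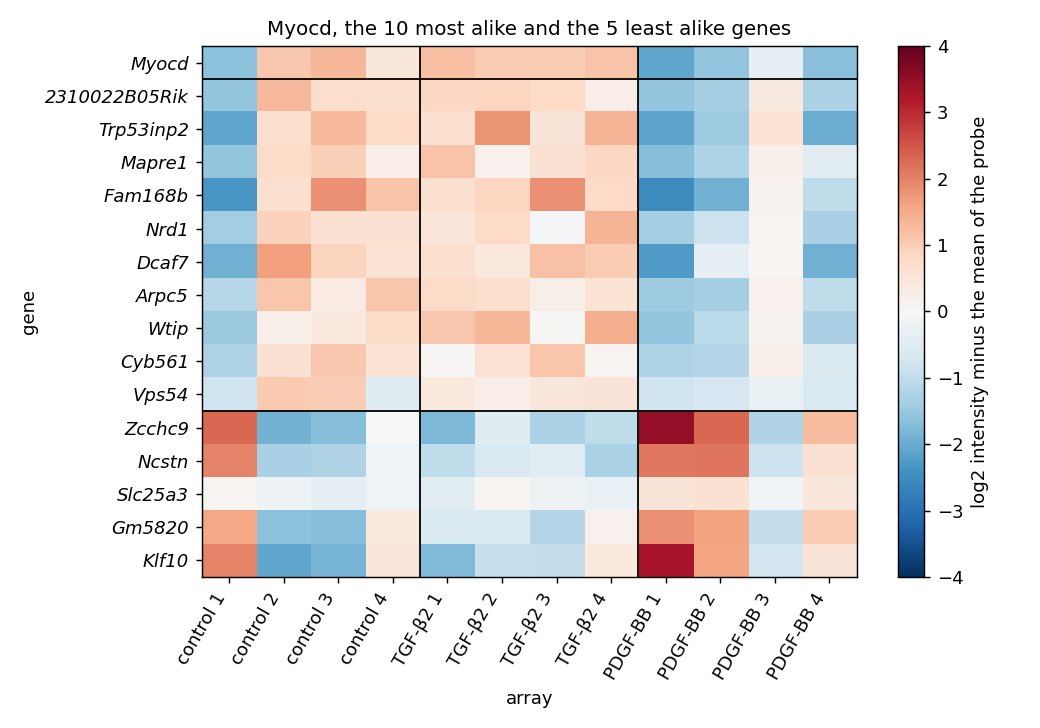
Log2 intensity relative to the mean of each probe (colour scale) on the 12 arrays (x axis) for Myocd, the 10 most alike and the 5 least alike genes (y axis, in blocks). Control 1 and PDGF-BB 1, 2 and 4 are low in the upper blocks and at their highest in the lowest block. The alike and unlike genes were picked on these same arrays, so this pattern is largely a product of that choice.

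The other genes of the pathway were taken from 7 lists chosen with earlier results of these data known. Between the groups, limma called 0 of 1099 probes (0%) at an adjusted p under 0.05 in each of the 3 contrasts. That count rested on control 1: without it, limma called 2 of 1060 probes (0.189%), Adarb1 and Myocd, for PDGF-BB minus control and 1 (0.0943%), Myocd, for TGF-β2 minus PDGF-BB, while leaving out any other single array gave 0. Myocd was picked on these contrasts and on its low signal in control 1, the array whose removal gave the calls. Its calls are therefore no independent support and no test of Myocd. With all 12 arrays, at an unadjusted p under 0.05, there were 8 probes (0.728%) for TGF-β2 minus control, 48 (4.37%) for PDGF-BB minus control and 52 (4.73%) for TGF-β2 minus PDGF-BB. Of the list genes other than Myocd, 14 genes with 16 probes were detected on at least 3 arrays and tested, and 0 were called, with 0, 1 and 2 probes at the unadjusted threshold. Their median difference was 0.19 for TGF-β2 minus control, -0.24 for PDGF-BB minus control and 0.37 for TGF-β2 minus PDGF-BB on the log2 scale, beside 0.05, -0.06 and 0.14 over all tested probes. Genes pass the detection filter through the groups where they are high, so these medians describe the tested genes only.

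The family members of myocardin and its partner SRF were at or near background. Mrtfa and Mrtfb were detected on 0 arrays, and Srf on 2, 1 with TGF-β2 and 1 with PDGF-BB, with log2 levels of 4.70 to 5.21. Of 31 partners and regulators on the array, 22 were detected nowhere and 2 on 3 or more arrays. Over the whole array, 22360 of 25696 probes (87.0%) were detected nowhere and 1099 on 3 or more arrays. This and the list counts below, each taken from the best probe of a gene, are to be read beside those shares. They do not show that the pathway is absent. Hey1, a Notch target known to repress myocardin activity, was detected on 2 control, 3 TGF-β2 and 1 PDGF-BB arrays. It read 5.23 ± 0.33, 5.72 ± 0.61 and 4.98 ± 0.20 (SD, n = 4), and TGF-β2 minus PDGF-BB was 0.74 ± 0.29 (limma standard error) with an adjusted p of 0.83. Nfat5, a transcription factor of the osmotic stress response, was detected on 2, 2 and 1 arrays, and its highest value was 7.30 in TGF-β2 1.

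Of 18 genes on the array that were listed as smooth muscle targets of SRF, 14 were detected nowhere, and Acta2 and Ldb3 on 3 or more arrays. Ldb3 encodes the Z-disc protein named above, so its detection is not read as that of a smooth muscle gene. Acta2, smooth muscle α-actin, was found on 4 control, 4 TGF-β2 and 2 PDGF-BB arrays. It read 7.03, 7.41, 7.38 and 7.55 in control, 7.67, 7.34, 7.24 and 8.11 with TGF-β2 and 4.93, 5.01, 7.53 and 7.0 with PDGF-BB. PDGF-BB 1 and 2 were low and PDGF-BB 3 and 4 lay with the other groups or just under them, so the low samples were not those of Myocd throughout. PDGF-BB minus control was -1.22 ± 0.53 and TGF-β2 minus PDGF-BB 1.47 ± 0.53 (limma standard error), with adjusted p of 0.82 and 0.83. A second tested Acta2 probe, ILMN_2923445, gave -0.05 and 0.18 for the same contrasts. Control 1, low for Myocd, had the lowest Acta2 value of its group but stayed near the others.

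Of 19 cardiac targets of SRF, 14 were detected nowhere and 5 on 3 or more arrays. Myl4, the atrial essential myosin light chain, was detected on 11 arrays, and its level of 8.29 ± 0.40 in control exosomes stood beside 8.26 ± 0.45 in TGF-β2 exosomes and 7.33 ± 1.51 in PDGF-BB exosomes (mean ± SD, n = 4). Atp2a2, the calcium pump SERCA2 of the sarcoplasmic reticulum, was also detected on 11 arrays. It read 5.98, 8.05, 8.70 and 8.60 in control, 8.65, 8.39, 8.65 and 8.58 with TGF-β2 and 4.71, 8.70, 8.30 and 8.53 with PDGF-BB. Atp2a2 was even with TGF-β2 and low in control 1 and PDGF-BB 1, as Myocd was, but high in PDGF-BB 2 and 4 where Myocd was not detected. Ttn was detected on 7 arrays, Myl7 on 5 and Myh6 on 3. Ttn read 5.36 ± 0.51 in control, 5.70 ± 0.68 with TGF-β2 and 6.06 ± 1.62 with PDGF-BB, where PDGF-BB 1 was highest at 8.45. Of the 6 cardiac probes tested, PDGF-BB minus control was positive for 2 and negative for 4. None of these passed the test, with adjusted p from 0.82 to 1 over the tested list genes.

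Of 14 immediate early targets of SRF, 10 were detected nowhere, and Mcl1 was detected on 7 arrays and Actb on 3. Of 14 TGF-β ligands, receptors and SMADs, Tgfbr1 and Smad5 were detected on 5 arrays and Smad4 on 4, and the other 11 on none. Tgfbr1, the type I receptor, was detected on 2 control, 2 TGF-β2 and 1 PDGF-BB arrays. Of 6 PDGF ligands and receptors, Pdgfc was detected on 1 array, and Pdgfra and Pdgfrb, the receptors that bind PDGF-BB, on 0.

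**Figure D4:**
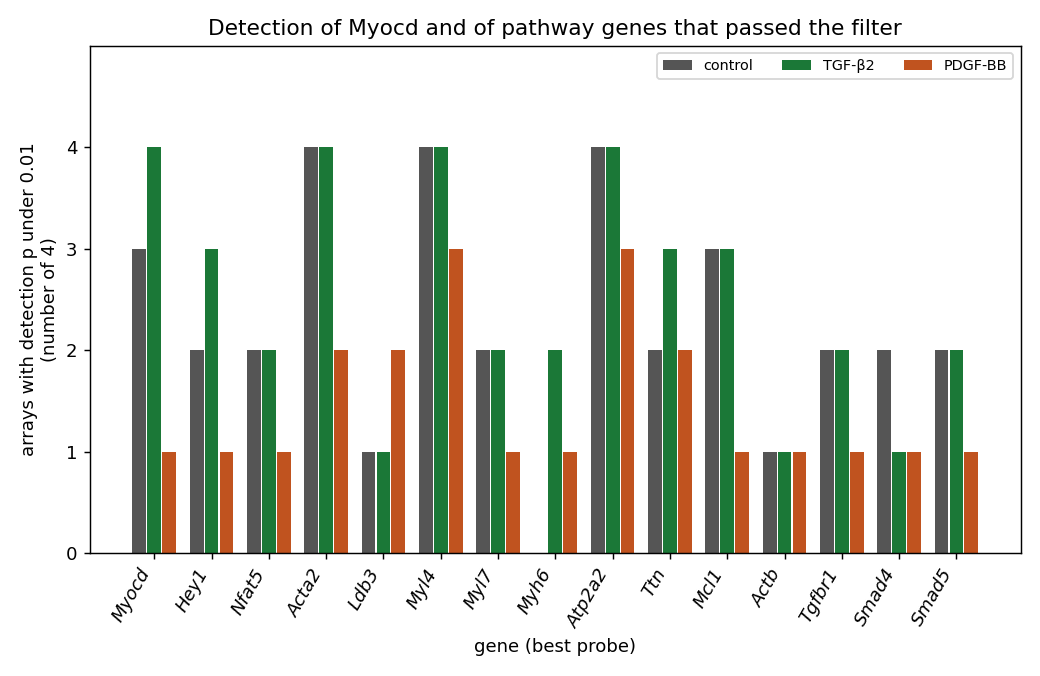
Number of arrays of 4 per group (y axis) with a detection p under 0.01 for the best probe of Myocd and of the 14 pathway genes tested (x axis). Acta2, Myl4 and Atp2a2 were detected on all 8 control and TGF-β2 arrays, and Myocd on 7 of them.

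The labelled cell type was checked against markers. Of 15 cardiomyocyte markers, 6 were detected on 3 or more arrays and 9, among them Actc1, Tnni3, Nppa, Ryr2, Nkx2-5 and Gata4, on none. The summed signal of the list ran from 235.3 to 1813 in control, from 631.9 to 2787 with TGF-β2 and from 157.6 to 2377 with PDGF-BB. Endothelial and smooth muscle cell markers were at 0 of 6 each. The smooth muscle list summed to 25.04 to 125.8 in control, -7.819 to 77.11 with TGF-β2 and 39.74 to 97.46 with PDGF-BB. Of 7 fibroblast markers 2, and of 4 leucocyte markers 1, were detected on any array. These counts stand beside 87.0% of all probes detected on no array.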

How the data were processed

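Exosome RNA of 12 samples was measured, 1 array each, and the sample titles gave the groups. The deposited scanner table gives, per the file headers, the mean signal of each probe, its detection p-value, the bead standard error (signal units) and the bead counts, with no normalization between arrays made by the authors. It holds negative signals and was therefore taken as background-subtracted before the background correction described below. A second deposited table, scaled by the authors with cubic splines (intensity), was used only as an alternative. The labels name GenomeStudio, and the methods an earlier Illumina program.

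Log2 values were computed with neqc (limma 3.58.1, R 4.3.3), that is normexp background correction, quantile normalization and an offset of 16. Probes detected at p under 0.01 on at least 3 arrays were tested, 1099 for 962 genes, by limma with group means as design and Benjamini-Hochberg adjustment. The number of arrays limits the precision, with a median standard error of 0.34 for a log2 difference. The fit was tested on simulated data. Probe names came from the platform annotation (23977 probes with 1 symbol, 0 with several, 1719 with none). CArG boxes, the 10-base SRF consensus, were searched in RefSeq promoter windows (GRCm38.p6) on the strand of the gene. Being a palindromic consensus, it reads the same on both strands.

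The gene, the lists and the tests were chosen with earlier results of these data known. Named genes were the Myocd probes, the 10 most and 5 least correlated named probes, list genes past the threshold, and per list up to 6 genes detected on the most arrays. Alternatives changed the normalization, offset, detection threshold, measure of array strength, likeness measure, replicate block, chip and single arrays. Plots used matplotlib 3.10.9 in Python 3.11.15.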

Additional observations from a re-analysis of the deposited data

Results flagged for a closer look

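Among 99 groups of 4 samples examined, 12 had 1 sample far from the other 3, where chance gives about 1 in 20, or 4.95, for independent groups. Myocd itself was not among them. The groups come from the same 12 arrays, and some hold genes picked for likeness to Myocd. They are therefore not independent, and nothing is read from the excess. The value given is the gap to the nearest sample over the range of the group. Of the 12, 8 were in PDGF-BB, and in 6 of these PDGF-BB 3 was the highest. For detected probes, Myocd included, PDGF-BB 3 had 1070 against 421 in the next sample (0.836). For 2310022B05Rik, TGF-β2 4 was lowest at 6.58 against 7.12 (0.924) and PDGF-BB 3 highest at 6.68 against 5.04 (0.859), on the log2 scale. PDGF-BB 3 was likewise highest for Myl7 at 6.48 against 4.75 (0.911), for Myh6 at 5.28 against 4.87 (0.864), for Actb at 5.21 against 4.68 (0.92) and for Tgfbr1 at 5.53 against 4.83 (0.898). In PDGF-BB 1, Nfat5 was highest at 5.41 against 5.02 (0.94) and Atp2a2 lowest at 4.71 against 8.30 (0.9). Nrd1 was lowest in control 1 at 4.98 against 6.98 (0.862). With TGF-β2, Ldb3 was highest in sample 1 at 7.20 against 4.96 (0.937) and Smad4 in sample 3 at 6.34 against 4.97 (0.939).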

How the results depend on the processing

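The Myocd differences kept their sign in every alternative run on both chips together. TGF-β2 minus PDGF-BB fell from 2.50 to 0.69 and PDGF-BB minus control from -1.72 to -0.51 when arrays were scaled on the probes detected on all of them, and the cause was not tested. Leaving out 1 sample at a time gave 2.34 to 2.72 and -2.44 to -1.34 for these, and 0.13 to 1.08 for TGF-β2 minus control, lowest without control 1. Without both control 1 and PDGF-BB 1, an alternative chosen after seeing the data, the values were 2.42, -2.29 and 0.13. With an offset of 50 they were 1.77, -1.21 and 0.56. The correlation with array strength was 0.414 with the 95th percentile of the signal as strength, and 0.554 to 0.692 with 1 sample left out. Calls among pathway genes stayed at 0 in all alternatives. Likeness by Spearman rho was 0.73 for 2310022B05Rik and 0.66 for Cyb561. With the replicate number as a block (replicate block), the Myocd differences were 2.50, -1.72 and 0.78 and the pathway calls 0. Every group holds every replicate number, so this block could not change the Myocd differences. The same holds for the chip as a block, since each chip carried equally many samples of each group. Deviations of samples with the same number correlated between -0.225 and 0.429, with 0.232 to 0.394 for number 1 and 0.366 to 0.429 for number 3. Samples of unlike number were not compared, so this range cannot decide whether the numbers pair samples. The main fit treated samples as unpaired. Arrays whose Myocd signal was not above background give only a bound on its level.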
